A study of Mus musculus with 12 samples.

Results

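The response of mouse embryonic fibroblasts to 2 days of doxycycline (dox) was measured in cells that had received a control siRNA (siControl), by comparing the 2 siControl libraries with dox with the 2 siControl libraries without it over all genes. These are 4 of the 12 RNA libraries of the series. The labels call the cells 2o 1B MEFs, a name for secondary embryonic fibroblasts grown from 1 reprogrammed line, so all 4 libraries share the dox-switched factors Pou5f1 (Oct4), Sox2, Klf4 and Myc and a lipid transfection of siRNA. The other 8 libraries hold the same cells with an siRNA against c-Myc (siMyc) or Gcn5 (siGcn5, gene Kat2a), each without dox and with dox for 2 days, in 2 libraries per group. The series' design text calls the times D0 and D2. Per the treatment protocol, dox came in embryonic stem cell medium 24 h after transfection, and nothing ties the medium or the harvest time of the libraries without dox to that of the libraries with dox, so the effects of dox, of medium and of time cannot be told apart. The labels do not say whether replicates were separate cultures, so the tests measure the spread between libraries, which may be technical.

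Dox acts on these cells by switching on introduced copies of the 4 factors. Oct4 and Sox2 are transcription factors of the early embryo, Klf4 is also a factor of the differentiating epidermis, and Myc raises the expression of genes for growth, ribosome production and the cell cycle. In the first days of reprogramming, fibroblasts are known to lose mesenchymal features, gain epithelial ones and divide faster, while most of the pluripotency network stays silent until later.

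Values are RPKM, reads scaled to transcript length and to library size, so each is a share of the library and levels of different genes can be compared. Gene reads came to 135 and 150.1 M in the siControl libraries without dox and 133 and 97.3 M in those with dox, within 65.6 to 188 M over all 12. Across genes, Spearman's rho between replicates was 0.997 without dox and 0.996 with dox. All 8 fibroblast markers had a mean above 1 RPKM in both groups, with sums of 11278 and 11206 RPKM without dox and 3237 and 2828 RPKM with dox.

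Of 13175 genes tested with limma on log2(RPKM + 1), 9751 (74%) were called for dox at an adjusted p under 0.05. Of these, 6075 rose (46.1% of genes tested) and 3676 fell (27.9%). A call together with a log2 change of at least 1, which is a 2-fold change, was found for 1655 rises (12.6%) and 947 falls (7.19%). These shares are the background for every count of a gene group below, since a group with about 46% of members up and 28% down did what genes in general did. The groups of siControl libraries did not overlap in 88.8% of genes. The median over all genes was 0.17, and the share of rises among the calls was 62.3%. Scaling by median ratios made that share 52.2%, and quantile normalization made it 49.9%. A log2 change near 0.17 is therefore the middle of the distribution. In bulk RNA, fewer cells of a type and less RNA per cell cannot be told apart. Values after ± are standard errors from limma, and adjusted p-values are from limma with Benjamini-Hochberg adjustment over all genes tested.

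**Figure D1:**
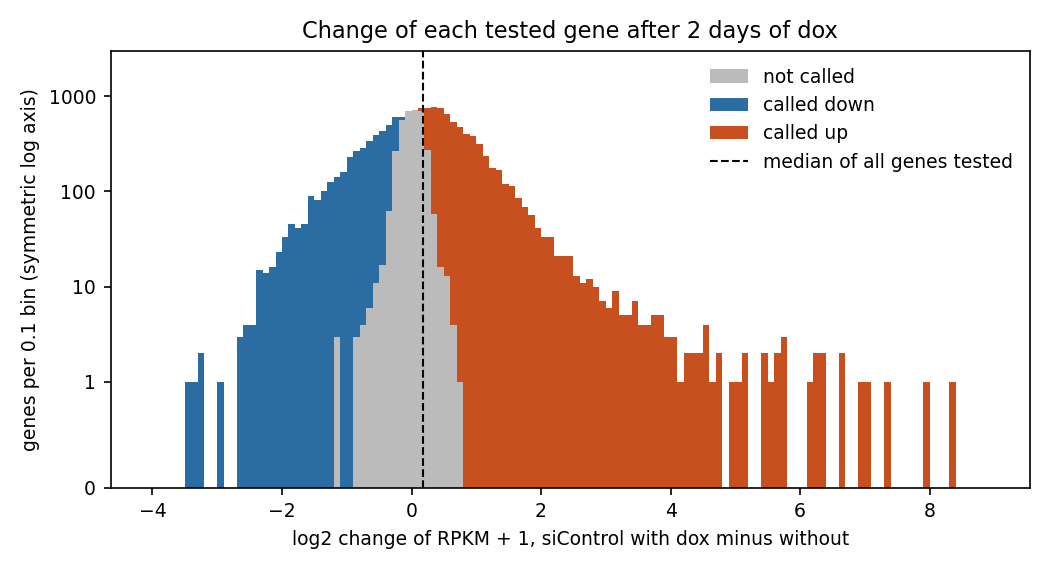
Histogram of the log2 change of RPKM + 1 (dox minus no dox, siControl) for the 13175 genes tested, on a symmetric log count axis, stacked as not called (grey), called down (blue) and called up (orange). The right tail runs past a log2 change of 8 (Krt14, 8.30), the left tail ends at -3.42 (Postn), and the dashed line marks the median of 0.17.

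The upper tail was longer than the lower one. A log2 change of 4 or more was found for 41 called genes and a fall of that size for 0, and past a log2 size of 2 there were 276 rises and 84 falls. Counting from the levels, 43 genes went from under 0.1 RPKM in both libraries without dox to at least 5 RPKM in both with dox. A fall from at least 5 RPKM in both libraries without dox to under 0.5 RPKM in both with dox was made by 1 gene, Ifi44. The floor of 0.5 RPKM is looser than that of 0.1 RPKM used for the rises. On the log2(RPKM + 1) scale a fall is bounded by the level without dox, while a rise is not. Of the 23 rises with a log2 change of at least 5, 12 (52.2%) were members of the 5 keratin and epithelial lists described below. The factor gene Pou5f1 was among the other rises of that size. Over all genes tested, 78 of 13175 (0.592%) were members of these lists. The lists were chosen with earlier results of these data known, so the count is a description and not a test.

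All 4 introduced factors rose. Pou5f1 was at 1.30 and 0.942 RPKM without dox and at 288 and 249 RPKM with dox. Sox2 was at 0.296 and 0.339 RPKM without dox and at 35.1 and 29.1 RPKM with dox. Klf4 was at 11.7 and 12.4 RPKM without dox and at 116 and 94.4 RPKM with dox. Myc was at 21.7 and 17.6 RPKM without dox and at 174 and 155 RPKM with dox. In each case both libraries with dox lay above both without, with log2 changes of 6.99 ± 0.17 for Pou5f1, 4.65 ± 0.22 for Sox2, 3.02 ± 0.15 for Klf4 and 3.01 ± 0.20 for Myc. Pou5f1 and Sox2 thus came from about 1 RPKM or less, whereas the fibroblasts already held Klf4 and Myc RNA. RPKM does not separate introduced from endogenous copies. Kat2a, which encodes the acetyltransferase Gcn5, was at 23 and 20.7 RPKM without dox and at 55.7 and 53.1 RPKM with dox, a log2 change of 1.28 ± 0.15 (limma adjusted p = 2.75e-05).

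Of 32 markers of reprogramming stages, 9 were expressed highly enough to be tested. The surface protein Thy1, a fibroblast marker that early reprogramming cells lose, was at 225 and 283 RPKM without dox and at 64.2 and 59.0 RPKM with dox, a log2 change of -2.02 ± 0.15. E-cadherin (Cdh1), the adhesion protein of epithelia, was at 0.00673 and 0.0106 RPKM without dox and at 18.3 and 15.7 RPKM with dox, a log2 change of 4.16 ± 0.10. L1td1, an RNA-binding protein of pluripotent cells, was at 0 and 0.0136 RPKM without dox and at 9.99 and 9.83 RPKM with dox. Fgf4, a growth factor that Oct4 and Sox2 regulate in stem cells, was at 0 RPKM in both libraries without dox and at 0.989 and 0.858 RPKM with dox. Both libraries with dox were above both without for these last 3, and below for Thy1. The epithelial surface protein Epcam and the alkaline phosphatase gene Alpl also rose, at log2 changes of 1.04 and 0.67. Klf2 and Tbx3, transcription factors of naive stem cells, fell, at -1.36 and -0.57. Markers of the later pluripotent state remained low. Nanog was at 0.186 and 0.162 RPKM without dox and at 0.166 and 0.220 RPKM with dox, with overlapping groups. The zinc finger factor Sall4 was at 0 RPKM in both libraries without dox and at 0.0385 and 0.0243 RPKM with dox. The RNA-binding Lin28a was at 0 RPKM in both libraries without dox and at 0.281 and 0.272 RPKM with dox. The stem cell factor Utf1 was at 0 RPKM in both libraries without dox and at 0.453 and 0.434 RPKM with dox. None of the last 4 genes reached 1 RPKM in a siControl library, and they were not tested.

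Keratins and other epidermal genes were among the largest rises. Krt14, the type I keratin of the basal layer of skin, was at 0.0358 and 0.0843 RPKM without dox and at 357 and 311 RPKM with dox, on 8 and 21 reads without dox and 78842 and 50239 with dox. Krt16, a keratin that skin makes on wounding, reached 272 and 241 RPKM with dox, and Krt17, another, reached 108 and 92.7 RPKM. Each was under 0.1 RPKM in both libraries without dox. Their partner Krt6a reached 78.2 and 88.7 RPKM and the similar Krt6b reached 50.7 and 53.4 RPKM, both from under 0.04 RPKM. The log2 changes were 8.30 ± 0.12 for Krt14, 7.93 ± 0.081 for Krt16, 6.61 ± 0.11 for Krt17, 6.38 ± 0.19 for Krt6a and 5.69 ± 0.14 for Krt6b, with limma adjusted p-values of 2.31e-12 (Krt16) to 3.97e-09 (Krt6a). Reads that fit several of these similar genes could have been split in counting. Of 6 tested basal and wound keratins all rose.

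Keratins build filaments from 1 type I and 1 type II chain, so their partners were compared by level. The type I chains summed to 25.6 and 22.1 RPKM without dox and 826 and 722 RPKM with dox, over 27 genes. The type II chains summed to 10.6 and 9.21 RPKM without dox and 307 and 303 RPKM with dox, over 23 genes. Both types were higher in both dox libraries, and type I exceeded type II in every one of the 4. Krt5, the usual type II partner of Krt14 in basal skin, was at 0.0169 and 0.00913 RPKM without dox and at 0.566 and 0.502 RPKM with dox. Both dox libraries lay above the others, but below 1 RPKM, and Krt5 was not tested. Krt8, the type II chain of simple epithelia, was at 0.695 and 0.653 RPKM without dox and at 132 and 118 RPKM with dox, a log2 change of 6.23 ± 0.10. Its type I partner Krt18 was at 5.73 and 6.74 RPKM without dox and at 5.96 and 4.63 RPKM with dox, with overlapping groups and a log2 change of -0.21 ± 0.14 (limma adjusted p = 0.196, and 0.0293 with median-ratio scaling). Krt19, another type I chain of simple epithelia, rose by 1.89 ± 0.19. The keratin-like gene 4732456N10Rik, which RefSeq names Krt90, a type II chain, was at 0.00586 and 0.0105 RPKM without dox and at 83.8 and 77.5 RPKM with dox, and with it the type II sum in the dox libraries was 391 and 381 RPKM. Krt7 and Krt20, further chains of simple epithelia, fell by 0.40 ± 0.16 and 0.34 ± 0.086, and the call of Krt7 ended without any 1 of 3 siControl libraries (limma adjusted p = 0.203, 0.0621 and 0.228), without either siMyc library without dox (0.0549 at most), with no filter on low values (0.0877) and with voom (0.0768).

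Genes of the outer skin layers rose with the keratins. Of 26 tested genes of epidermal differentiation, 24 rose (23 at least 2-fold) and 0 fell, at a median log2 change of 2.11. Krtdap, a secreted protein of differentiating keratinocytes, was at 0 and 0.146 RPKM without dox and at 170.2 and 185 RPKM with dox. Cnfn, a protein of the cornified envelope, was at 0.0205 and 0.0829 RPKM without dox and at 165 and 124 RPKM with dox. Aqp3, the water and glycerol channel of skin, was at 0.0926 and 0.102 RPKM without dox and at 88.8 and 82.0 RPKM with dox. All 3 were near 0 in both libraries without dox. Sbsn (suprabasin) started higher, 2.81 and 2.65 RPKM without dox and 105 and 95.0 RPKM with dox. The lipoxygenase Alox12b and the transglutaminase Tgm1, enzymes of the skin barrier, rose by 5.45 ± 0.14 and 4.37 ± 0.10. Krt10, the type I keratin of the suprabasal layer, was at 1.20 and 0.866 RPKM without dox and at 1.45 and 1.27 RPKM with dox. Its partner Krt1 was at 0.00607 and 0 RPKM without dox and at 2.02 and 2.72 RPKM with dox. Krt10 was not called (limma adjusted p = 0.143), while Krt1 rose by 1.74 ± 0.21. Trp63 (p63), the transcription factor of basal keratinocytes, was at 0.0135 and 0.0143 RPKM without dox and at 0.0112 and 0.0102 RPKM with dox, so both groups were near 0. The 10 keratinocyte markers summed to 2.93 and 2.14 RPKM without dox and 421 and 369 RPKM with dox, and 6 of them reached a mean of 1 RPKM with dox against 1 without.

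**Figure D2:**
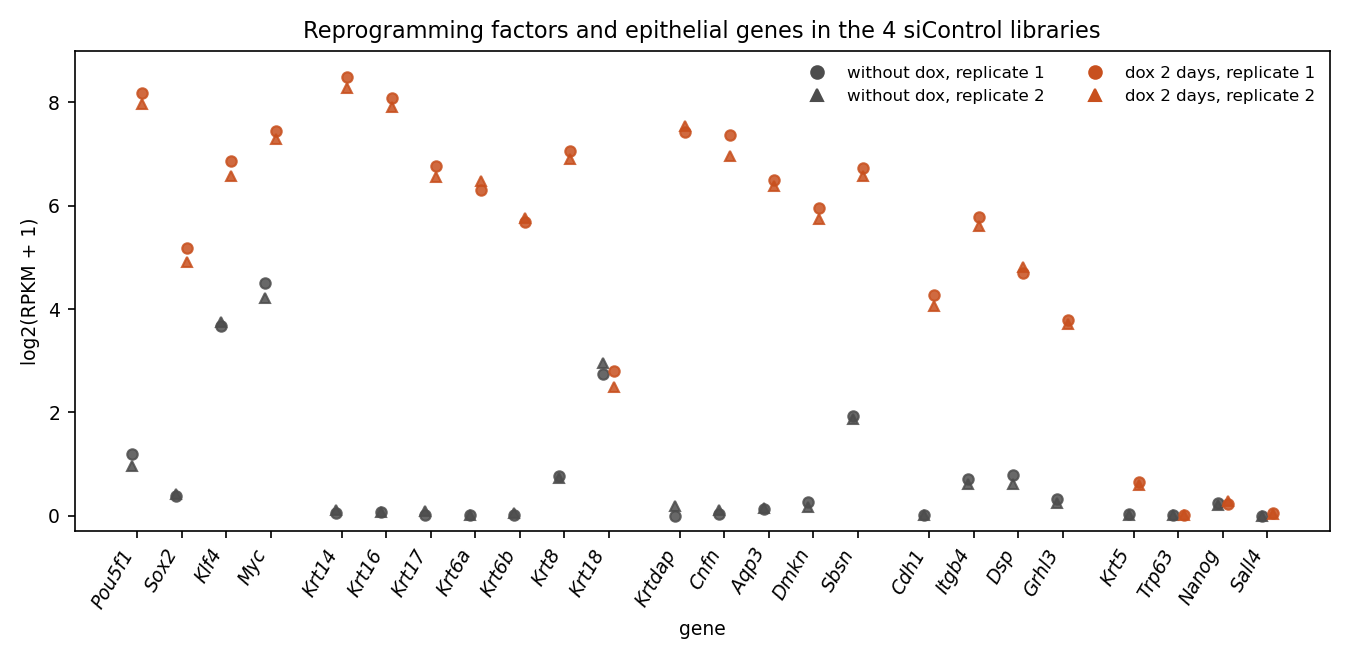
log2(RPKM + 1) of 24 genes in the 4 siControl libraries, grey without dox and orange with dox, circles for replicate 1 and triangles for replicate 2. Krt14, Krt16 and Krt8 are high with dox, and the points of Krt18, Krt5, Trp63, Nanog and Sall4 lie below 3 in both groups.

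Promoters of these genes were searched for motifs because the members rose together. The letters TGANTCA, where N is any base, are a looser form of the AP-1 site, which has C or G in the middle. They were searched on both strands of RefSeq promoters of build GRCm38.p6, from 250 bases before to 50 after the start. They were present for 8 of 20 matched genes of epidermal differentiation (40%). The share over all 9088 tested genes with such a promoter was 6.51%, and it was 7.67% among genes that rose at least 2-fold and 8.91% among those that fell at least 2-fold. It was present for 7 of 24 interferon-stimulated genes (29.2%), of which none tested rose, and for 3 of 21 contractile genes (14.3%). Among called genes of the epidermal list with a match before the start, the 4 with the largest change are shown, with the motif in capitals.
Krtdap (chr7:30787813-30787842, + strand): tgatccggggaTGAGTCActagggtgggaa
Dmkn (chr7:30776312-30776341, + strand): gcgggaagctaTGAGTCAtggaaggaaaga
Sbsn (chr7:30751341-30751370, + strand): gatcttgtccaTGAATCAtcctgtcttcct
Sprr1b (chr3:92438872-92438901, - strand): agcacctaggaTGAATCAtgtctgacaggc
The middle base is G in Krtdap and Dmkn and A in Sbsn and Sprr1b, and Krtdap, Dmkn and Sbsn lie close together on chromosome 7. A match is a description of the letters, and binding there was not measured. Of AP-1 genes, which encode the Jun and Fos proteins and related early genes, 4 of 20 tested rose and 6 fell. Fosl1 rose by 0.92 ± 0.079 and Atf3 by 1.55 ± 0.12, and Fosl2 and Dusp5 fell by 1.01 ± 0.13 and 1.03 ± 0.22. The median of that list changed sign when siControl dox replicate 2 was left out and with no filter on low values.

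Most cell junction genes rose. Of 34 tested genes of epithelial adhesion and junctions, 31 rose (24 at least 2-fold) and 1 fell, Cdh3 (P-cadherin). Itgb4, the integrin of hemidesmosomes, was at 0.645 and 0.541 RPKM without dox and at 53.9 and 48.0 RPKM with dox. Desmoplakin (Dsp), which ties keratins to desmosomes, was at 0.732 and 0.528 RPKM without dox and at 24.9 and 27.1 RPKM with dox. The membrane protease St14 (matriptase) rose by 3.77 ± 0.14, the desmosomal protein Perp by 3.08 ± 0.11 and the tight junction protein Cldn4 by 2.83 ± 0.14. Cdh3 was at 10.4 and 10.3 RPKM without dox and at 5.00 and 4.51 RPKM with dox, a log2 change of -0.98 ± 0.20. The other parts of the hemidesmosome and its matrix ligand rose too. Itga6, the partner of Itgb4, was at 8.67 and 6.85 RPKM without dox and at 24.7 and 25.6 RPKM with dox, and the laminin chains Lamb3 and Lama3 rose by 1.94 ± 0.17 and 1.32 ± 0.085.

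Few transcription factors of epithelia were expressed. Of 23, 7 were tested, 4 rose and 1 fell. The grainyhead factor Grhl3, needed to seal the epidermis, was at 0.246 and 0.192 RPKM without dox and at 12.8 and 12.2 RPKM with dox. Grhl1, of the same family, and Ovol1, a factor of epidermal differentiation, rose by 1.76 ± 0.086 and 1.64 ± 0.079, and both were under 0.2 RPKM in both libraries without dox and above 2 RPKM in both with dox. Gata3, a factor of skin and of T cells, fell by 0.58 ± 0.22, a call that ended without any 1 of 3 siControl libraries (limma adjusted p = 0.144, 0.0632 and 0.219) and with no filter on low values (0.0771).

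Mesenchymal regulators fell. Of 26 tested mesenchymal transcription factors, 22 fell (9 at least 2-fold) and 2 rose, at a median of -0.89. Snai2 (Slug), a repressor of E-cadherin, was at 27.1 and 28.0 RPKM without dox and at 5.56 and 4.97 RPKM with dox. Snai1 (Snail), its close relative, was at 33.1 and 28.1 RPKM without dox and at 10.1 and 6.96 RPKM with dox. In both, the dox libraries lay below those without dox, and the log2 changes were -2.19 ± 0.15 and -1.75 ± 0.18. The forkhead factor Foxs1 and the limb mesenchyme factor Prrx2 fell by 1.76 ± 0.17 and 1.63 ± 0.14. The exceptions were tendon factors. Mkx (Mohawk) was at 0.749 and 0.529 RPKM without dox and at 3.40 and 3.63 RPKM with dox. Scx (scleraxis) was at 8.25 and 8.47 RPKM without dox and at 13.7 and 14.2 RPKM with dox. The log2 changes were 1.46 ± 0.11 for Mkx and 0.67 ± 0.089 for Scx.

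Most collagen and other matrix genes fell. All 24 tested collagen chain genes fell, 22 of them at least 2-fold, at a median of -1.69. Col1a1, a chain of type I collagen, was at 4004 and 3705 RPKM without dox and at 849 and 654 RPKM with dox. Col1a2 was at 2428 and 2578 RPKM without dox and at 511 and 456 RPKM with dox. Together the 25 collagen genes took 5.24% and 5.13% of gene reads without dox and 1.25% and 1.03% with dox. The proteoglycan and matricellular genes went from 4.89% and 4.97% to 1.31% and 1.15% of reads. There, 29 of 32 tested members fell (26 at least 2-fold) and 1 rose. Periostin (Postn), a matricellular protein, was at 127 and 175 RPKM without dox and at 12.9 and 13 RPKM with dox. Fibronectin (Fn1), the adhesive protein of the matrix, was at 1534 and 1503 RPKM without dox and at 311 and 282 RPKM with dox. Fibromodulin (Fmod), which binds collagen fibrils, was at 17.3 and 20.2 RPKM without dox and at 1.81 and 1.38 RPKM with dox. In all 3 the dox libraries lay below the others. The riser was decorin (Dcn), a small proteoglycan that binds collagen, which was at 4.59 and 6.81 RPKM without dox and at 100.2 and 103 RPKM with dox, a log2 change of 3.95 ± 0.14 (limma adjusted p = 1.52e-08). All 27 tested matrix proteases and inhibitors fell, 18 at least 2-fold. They included the proteoglycan-cutting Adamts5 (by 2.22 ± 0.20), the metalloprotease Mmp23 (by 2.21 ± 0.16) and the serine protease Htra1 (by 2.03 ± 0.12).

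**Figure D3:**
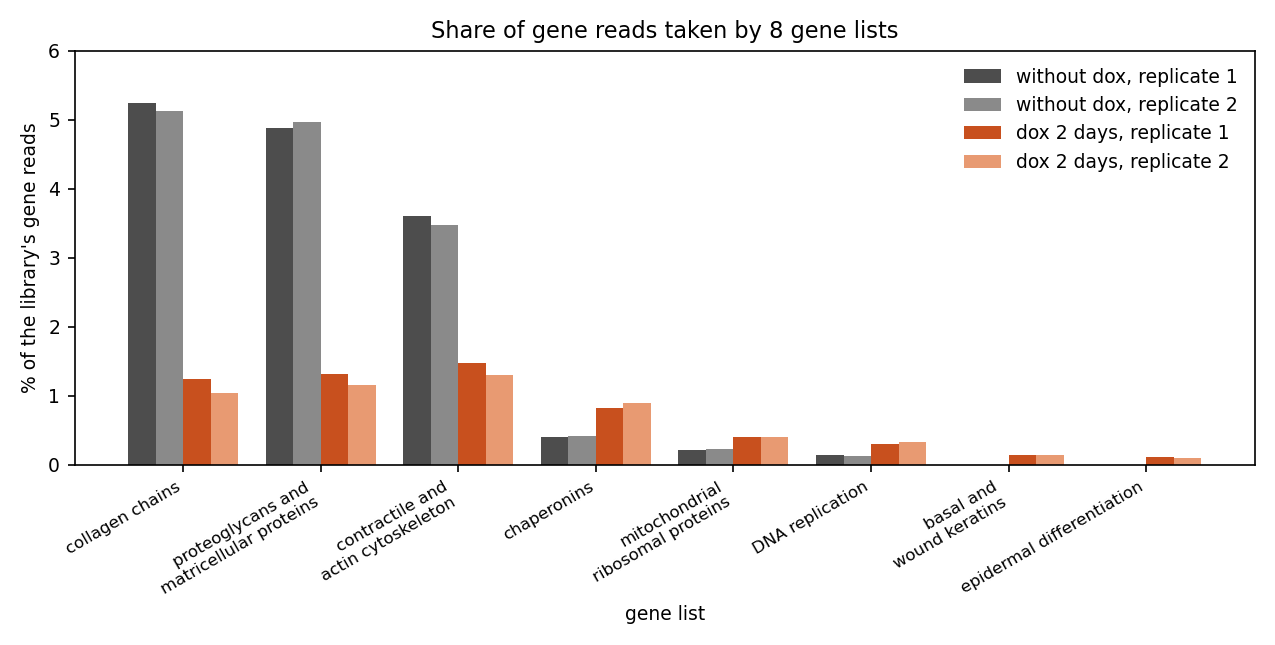
Share of a library's gene reads (y axis, %) taken by 8 gene lists, as 1 bar per siControl library (greys without dox, oranges with dox). Collagens fall from 5.24% and 5.13% to 1.25% and 1.03%, while keratins and epidermal genes rise from near 0.

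Contractile genes fell as a group. Of 26 tested genes of the actin cytoskeleton, 24 fell (20 at least 2-fold) and 1 rose, at a median of -1.43. Smooth muscle actin (Acta2) was at 4184 and 4122 RPKM without dox and at 1223 and 942 RPKM with dox, and the calponin-like Tagln fell by 1.89 ± 0.15. The exception was Tagln2, a paralog of Tagln found in many cell types, which was at 352 and 342 RPKM without dox and at 568 and 575 RPKM with dox. The serum response factor Srf, which drives many of these genes, fell by 0.42 ± 0.11 (limma adjusted p = 0.00534, and 0.0573 without siControl dox replicate 2), and its coactivator Mkl1 by 0.92 ± 0.11. The binding site of Srf, the CArG box, was found in promoters of 4 of 21 matched members (19%), against 1.64% of all 9088 genes and 4.22% of genes that fell at least 2-fold. All 4 genes fell, and their matches before the start are shown with the box in capitals.
Myl9 (chr2:156775293-156775322, + strand): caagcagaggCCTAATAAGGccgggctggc
Cnn2 (chr10:79988534-79988563, + strand): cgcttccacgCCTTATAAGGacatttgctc
Vcl (chr14:20929161-20929190, + strand): cccactatgcCCTTATAAGGagcgccccgc
Srf (chr17:46556205-46556234, - strand): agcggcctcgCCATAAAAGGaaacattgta
Myl9, a myosin light chain, was at 571 and 568 RPKM without dox and at 174 and 133 RPKM with dox. The calponin Cnn2 fell by 1.59 ± 0.11 and vinculin (Vcl), which links actin to adhesions, by 1.47 ± 0.12. Of integrins and laminins, 15 of 26 tested fell and 8 rose. The collagen receptor Itga11 fell by 2.66 ± 0.13 and the fibronectin receptor Itga5 by 1.39 ± 0.14, and the risers included Itgb4, Itga6 and the laminin chains given with the junction genes.

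Ligands and receptors of fibroblasts mostly fell. Of 23 tested genes of the PDGF and FGF pathways, 13 fell and 7 rose. The receptor Pdgfrb was at 61.4 and 62.5 RPKM without dox and at 9.99 and 8.5 RPKM with dox, and Pdgfra fell by 1.67 ± 0.11. The ligands Fgf7 and Fgf10, which fibroblasts send to epithelia, fell by 1.82 ± 0.19 and 1.40 ± 0.12. Fgfbp1, a carrier of FGFs that keratinocytes secrete, was at 0 RPKM in both libraries without dox and at 24.5 and 28.0 RPKM with dox. The endocrine FGF Fgf15 rose by 1.91 ± 0.12. Of 25 tested TGF-beta genes, 15 fell and 3 rose. The binding protein Ltbp2 fell by 2.07 ± 0.15, the activin subunit Inhba by 1.95 ± 0.17 and the ligand Tgfb3 by 1.87 ± 0.16, while the receptor Acvr2b was at 0.572 and 0.349 RPKM without dox and at 3.42 and 2.95 RPKM with dox. Among 26 tested BMP genes, 14 fell and 2 rose, Bmp6 and Bmp7 (by 1.50 ± 0.095 and 0.87 ± 0.11), and the antagonist Grem1 and the target Id3 fell by 1.90 ± 0.30 and 1.64 ± 0.22.

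Wnt and Notch genes split by member. Of 41 tested Wnt pathway genes, 21 fell and 9 rose. The ligand Wnt7a was at 0.00467 and 0.0231 RPKM without dox and at 8.97 and 7.40 RPKM with dox, while Wnt5a fell by 1.63 ± 0.10. The nuclear partners of beta-catenin Tcf7 and Lef1 rose by 1.36 ± 0.11 and 1.34 ± 0.16, and the secreted proteins Dkk3 and Sfrp4 fell by 2.57 ± 0.18 and 1.73 ± 0.27. Of 14 tested Notch and Hedgehog genes, 6 rose and 6 fell, and the sign of their median changed under both alternative scalings. It also changed with a filter of a mean of at least 5 RPKM and without siControl dox replicate 1. The Notch ligand Jag2 was at 0.167 and 0.133 RPKM without dox and at 17.1 and 13.5 RPKM with dox, whereas Jag1 was at 21.6 and 16.1 RPKM without dox and at 9.99 and 8.86 RPKM with dox. Of 12 tested EGF family genes 7 fell and 3 rose, among them the receptor Erbb3 (by 1.84 ± 0.12).

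Most genes for making RNA and protein rose. All 14 tested genes of RNA polymerase I, which transcribes ribosomal RNA, rose (7 at least 2-fold, median 1.01). The second-largest subunit Polr1b was at 6.29 and 5.67 RPKM without dox and at 31.3 and 32.2 RPKM with dox. Polr1e was at 7.15 and 6.75 RPKM without dox and at 33.9 and 35.3 RPKM with dox. The dox libraries were above the others in both, by 2.23 ± 0.19 and 2.16 ± 0.10. Of 22 tested RNA polymerase III genes, which make tRNA and 5S RNA, 20 rose and 0 fell. Polr3g, a subunit form of stem cells, was at 2.64 and 2.48 RPKM without dox and at 15.1 and 16.8 RPKM with dox, a log2 change of 2.25 ± 0.13. Its alternative in differentiated cells, Polr3gl, was at 4.64 and 5.00 RPKM without dox and at 5.38 and 4.00 RPKM with dox, with overlapping groups and a log2 change of -0.04 ± 0.15 (limma adjusted p = 0.814). Of 56 tested translation initiation factors 44 rose and 2 fell, and of 14 snoRNA host genes 13 rose and 0 fell. Of 37 aminoacyl-tRNA synthetases, which charge tRNAs, 29 rose and 3 fell. The mitochondrial enzymes Mars2 and Yars2 rose by 1.44 ± 0.10 and 1.41 ± 0.10. The enzyme with the largest fall was the cytosolic Aars, which was at 98.9 and 106 RPKM without dox and at 60.4 and 60.8 RPKM with dox.

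Mitochondrial and protein-folding genes also rose. Of 76 mitochondrial ribosomal protein genes, 69 rose (25 at least 2-fold) and 0 fell, at a median of 0.88. Mrpl47, of the large subunit, was at 15.4 RPKM in both libraries without dox and at 45.6 and 47.9 RPKM with dox. Of 77 tested respiratory chain genes, 60 rose (5 at least 2-fold) and 5 fell, at a median of 0.50. Cytochrome c (Cycs) rose by 1.20 ± 0.088, and the complex I subunit Ndufv3 fell by 0.47 ± 0.092. All 10 chaperonin genes, which encode protein-folding chambers, rose at a median of 0.99. The mitochondrial Hspd1 was at 241 and 221 RPKM without dox and at 692 and 793 RPKM with dox. Of 34 proteasome genes 31 rose and 0 fell, and 0 of them rose 2-fold or more with a call.

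Most genes of DNA replication and mitosis rose. Of 36 tested genes of DNA replication, 35 rose (22 at least 2-fold), at a median of 1.21. The polymerase delta subunit Pold2 was at 17.7 and 16.3 RPKM without dox and at 72.4 and 69.1 RPKM with dox. The helicase loader Mcm10 was at 5.03 and 3.91 RPKM without dox and at 17.5 and 20.5 RPKM with dox. Of 30 mitosis genes 23 rose (10 at least 2-fold) and 0 fell, at a median of 0.88. Cdc20, the activator of chromosome separation, was at 48.0 and 48.2 RPKM without dox and at 124 and 136 RPKM with dox, a log2 change of 1.42 ± 0.28. Replication-dependent histone genes went the other way, with 15 of 22 tested falling and 1 rising, and 46 of the 68 found were too low to test. The H3 gene Hist1h3c was at 3.65 and 2.32 RPKM without dox and at 0.986 and 0.771 RPKM with dox, and the H4 gene Hist1h4i rose by 0.71 ± 0.10. Their family members are near-identical, so single values are uncertain. Of 25 tested G1 genes 13 rose and 6 fell, near the shares over all genes. The kinase inhibitor Cdkn2b was at 36.8 and 36.4 RPKM without dox and at 11.4 and 9.76 RPKM with dox. The retinoblastoma gene Rb1 was at 7.46 and 6.93 RPKM without dox and at 16.9 and 18.9 RPKM with dox. The inhibitors Cdkn1c and Cdkn1b fell by 0.83 ± 0.20 and 0.71 ± 0.10, and the cyclin Ccne2 rose by 1.01 ± 0.13. Of 24 tested p53 targets 14 rose and 3 fell. The largest rises were of Sfn (0.768 and 0.727 RPKM without dox and 41.7 and 36.5 RPKM with dox) and Perp, and both are also epithelial genes.

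**Figure D4:**
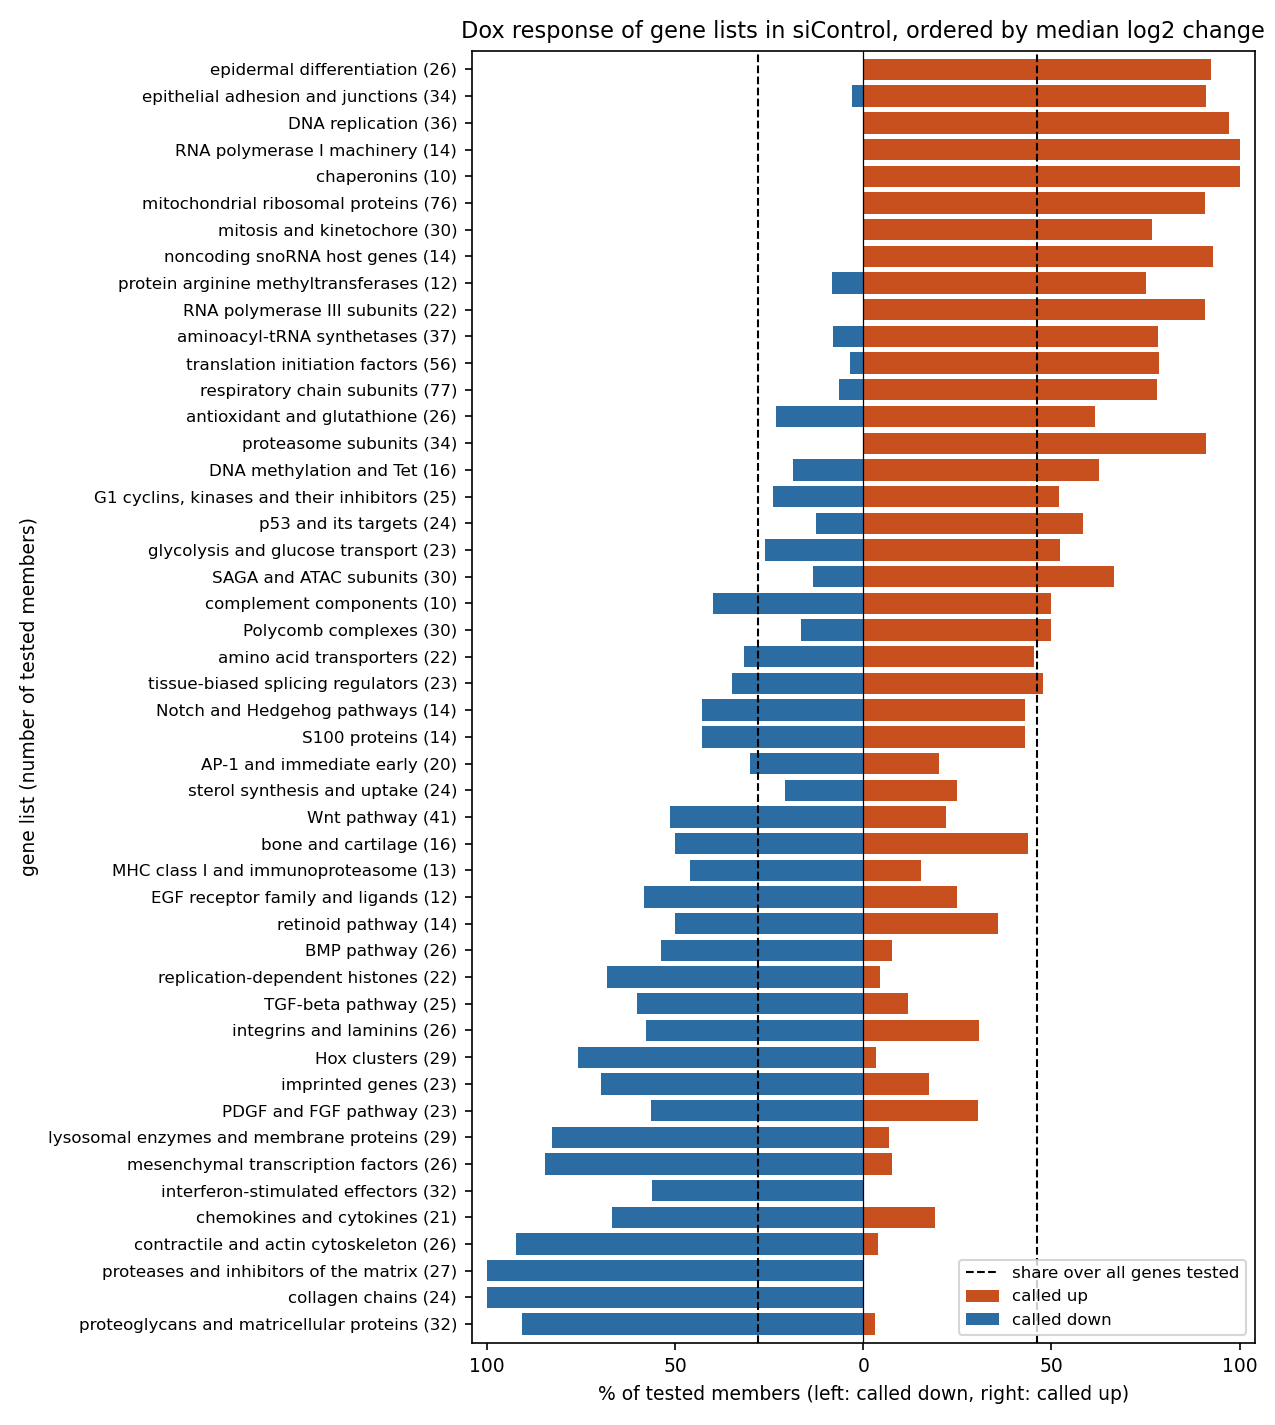
Share of tested members called up (orange, to the right) and called down (blue, to the left) in siControl for each gene list with at least 10 tested members, ordered by median log2 change, with dashed lines at the shares over all genes tested, 46.1% up and 27.9% down. Matrix and contractile lists lie at the bottom with nearly all members down, and replication and RNA polymerase I lists near the top with nearly all members up.

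The study's interest is the regulation of splicing by Myc and the SAGA coactivator, of which Gcn5 is the acetyltransferase. Of 30 tested SAGA and ATAC subunits, 20 rose and 4 fell, at a median of 0.33. Beside Kat2a, the subunits Taf5l and Wdr5 rose by 1.15 ± 0.092 and 1.10 ± 0.10. Kat2b, the close relative of Kat2a, was at 3.65 and 3.61 RPKM without dox and at 2.63 and 2.82 RPKM with dox, a log2 change of -0.31 ± 0.081. Of 12 tested arginine methyltransferase genes 9 rose and 1 fell. Prmt5, which methylates Sm proteins of the spliceosome, was at 29.4 and 28.2 RPKM without dox and at 81.2 and 83.4 RPKM with dox, and its partners Wdr77 and Clns1a rose by 1.47 ± 0.11 and 1.28 ± 0.10. Tissue-biased splicing regulators went both ways, 11 up and 8 down of 23, and their median of 0.12 became negative under both alternative scalings. Esrp2, a regulator of epithelial splicing, was at 1.51 and 1.48 RPKM without dox and at 16.7 and 15.6 RPKM with dox. The RNA-binding Rbm38 was at 5.86 and 6.55 RPKM without dox and at 40.0 and 37.4 RPKM with dox. The neuronal Elavl2 was at 0.914 and 0.803 RPKM without dox and at 6.48 and 7.71 RPKM with dox. The groups did not overlap in any of the 3. Among the 8 that fell were Rbpms2 (by 1.41 ± 0.12), a relative of Rbpms, Mbnl2 (by 0.81 ± 0.086), of the muscleblind family, and Rbfox2 (by 0.61 ± 0.075). Rbpms, a smooth muscle splicing factor, was at 12.2 and 13.5 RPKM without dox and at 5.49 and 4.81 RPKM with dox.

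Chromatin genes went both ways. Of 30 tested Polycomb genes 15 rose and 5 fell, with a share of rises near that over all genes. Pcgf6, a subunit of a variant complex of stem cells, was at 4.61 and 4.60 RPKM without dox and at 14.2 and 15.6 RPKM with dox, and the histone methyltransferase Ezh2 rose by 0.97 ± 0.17. Of 16 tested genes of DNA methylation 10 rose and 3 fell. The methyltransferase Dnmt3b was at 0.467 and 0.504 RPKM without dox and at 2.29 and 2.54 RPKM with dox, Dnmt1 rose by 1.12 ± 0.19 and the glycosylase Tdg by 1.38 ± 0.17. Of 29 tested Hox genes, which record body position, 22 fell and 1 rose, at a median of -0.64. Hoxc8 was at 15.6 and 14.8 RPKM without dox and at 5.6 and 5.00 RPKM with dox. The riser was Hoxd9 (by 0.25 ± 0.10, limma adjusted p = 0.0466), a call that ended with both scaling alternatives (limma adjusted p = 0.142 and 0.416) and with no filter on low values (0.0615). That call also ended when siControl replicate 1 without dox, either siControl library with dox or any siMyc library was left out, at limma adjusted p-values of 0.0523 to 0.249. Of 23 tested imprinted genes 16 fell and 4 rose. The noncoding H19 was at 306 and 341 RPKM without dox and at 91.6 and 92.5 RPKM with dox, and its neighbour Igf2 fell by 1.37 ± 0.14. The noncoding genes Meg3, Rian and Mirg of 1 imprinted cluster fell by 2.05 ± 0.45, 1.85 ± 0.16 and 1.87 ± 0.31. Risers were Phlda2 and Mest, genes that act on placental and fetal growth. Phlda2 was at 0.131 and 0.0994 RPKM without dox and at 10.1 and 8.21 RPKM with dox. Mest was at 7.93 and 9.06 RPKM without dox and at 48.1 and 47.9 RPKM with dox.

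Interferon-stimulated genes fell or did not pass the test. Of 32 tested interferon-stimulated genes, 18 fell (14 at least 2-fold) and 0 rose, at a median of -1.0. Isg15, a ubiquitin-like protein, was at 32.5 and 39.0 RPKM without dox and at 3.11 and 2.16 RPKM with dox. Its protease Usp18 was at 10.2 and 11.1 RPKM without dox and at 0.730 and 0.882 RPKM with dox. The antiviral gene Ifi44 was at 5.39 and 5.27 RPKM without dox and at 0.132 and 0.219 RPKM with dox. In all 3 both dox libraries were below both without dox, with log2 changes of -3.35 ± 0.48, -2.69 ± 0.47 and -2.43 ± 0.47. These standard errors, which pool the spread of all 6 groups, were larger than that of Wisp2, a matrix-associated secreted protein at -3.23 ± 0.074. The factors that carry the interferon signal, Stat2 and Irf7, fell by 1.88 ± 0.30 and 1.92 ± 0.40. An interferon-response motif, GAAA, any 2 bases and GAAA (both strands), stood in the promoters of 15 of 24 matched members (62.5%), against 3.58% of all 9088 genes, 7.03% of genes that fell at least 2-fold and 2.22% of those that rose at least 2-fold. Among the 14 matched members that were called the count was 10. Among called members with a match before the start, the 4 with the largest change are shown, with the match in capitals, read on the strand of the gene, where TTTC marks a match on the other strand.
Isg15 (chr4:156200865-156200894, - strand): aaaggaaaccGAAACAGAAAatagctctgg
Stat2 (chr10:128270266-128270295, + strand): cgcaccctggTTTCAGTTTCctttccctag
Irgm1 (chr11:48871425-48871454, - strand): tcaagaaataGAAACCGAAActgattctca
Ifit1 (chr19:34640794-34640823, + strand): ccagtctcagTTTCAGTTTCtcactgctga
Ifit1, which binds viral RNA, fell by 1.70 ± 0.51 (limma adjusted p = 0.012), which lost its call when siControl replicate 1 without dox was left out (limma adjusted p = 0.0533) and when siControl dox replicate 2 was (0.059). The GTPase gene Irgm1 fell by 1.78 ± 0.22. Over the 9088 promoters, matches of different motifs among the 3 shared bases in 0. Of 13 tested MHC class I and immunoproteasome genes 6 fell and 2 rose. The immunoproteasome subunits split, with Psmb8 falling by 1.60 ± 0.26 and Psmb10, which was at 12.1 and 13.7 RPKM without dox and at 58.1 and 52.0 RPKM with dox, rising by 2.01 ± 0.13. Of 21 tested chemokines and cytokines 14 fell and 4 rose. The stromal chemokine Cxcl12 was at 35.5 and 47.3 RPKM without dox and at 6.82 and 6.63 RPKM with dox, and the cytokines Cxcl16 and Il18 rose by 1.26 ± 0.12 and 1.16 ± 0.16.

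Other groups split by member. Of 14 tested S100 genes, which encode calcium-binding proteins, 6 rose and 6 fell, and the sign of the median changed with scaling. It also changed with a filter of a mean of at least 5 RPKM and without siControl dox replicate 1. The epithelial S100a14 was at 0.0678 and 0.0122 RPKM without dox and at 31.5 and 29.9 RPKM with dox. S100a9, a protein of neutrophils and stressed skin, was at 0 RPKM in both libraries without dox and at 24.1 and 13.3 RPKM with dox. The abundant S100a6 went down, as it was at 2744 and 2555 RPKM without dox and at 1694 and 1546 RPKM with dox. Of 29 tested lysosomal genes 24 fell and 2 rose, at a median of -0.78. The hexosaminidase subunit Hexa was at 104 and 108 RPKM without dox and at 38.7 and 33.7 RPKM with dox, and the cathepsins Ctsb and Ctsh fell by 1.39 ± 0.10 and 1.46 ± 0.12. Of 26 tested antioxidant genes 16 rose and 6 fell. The glutathione transferases Gsta1 and Gsta4 rose by 2.76 ± 0.10 and 2.30 ± 0.10, and Gstm2 fell by 1.64 ± 0.10. Of superoxide dismutases, the mitochondrial Sod2 was at 10.9 and 10.4 RPKM without dox and at 36.3 and 38.1 RPKM with dox. The extracellular Sod3 was at 6.43 and 11 RPKM without dox and at 1.23 and 1.14 RPKM with dox. Of 14 tested genes of the retinoid pathway 5 rose and 7 fell. The retinoic acid carriers also parted, with Crabp2 rising by 2.51 ± 0.14 and Crabp1 falling by 1.11 ± 0.24. Of 23 tested genes of glycolysis and glucose transport 12 rose and 6 fell, near the shares over all genes. Of glucose and lactate genes, the lactate carrier Slc16a1 was at 4.35 and 4.82 RPKM without dox and at 34.9 and 41.3 RPKM with dox. The glucose transporter Slc2a3 rose by 1.70 ± 0.085 and Slc2a1 fell by 0.81 ± 0.09. Of 22 tested amino acid transporters 10 rose and 7 fell, near the shares over all genes, and their median of 0.17 became negative with quantile normalization. Slc6a15 and Slc1a5, which carry neutral amino acids, rose by 2.52 ± 0.21 and 1.94 ± 0.17. Of 24 tested sterol genes 6 rose and 5 fell.

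Markers of other cell types gave a few calls. The endothelial receptor Tek was at 0.0191 and 0.0601 RPKM without dox and at 7.44 and 8.78 RPKM with dox, whereas the sialomucin Emcn fell by 0.88 ± 0.10, and the 10 endothelial markers summed to 7.06 and 6.64 RPKM without dox and 15.9 and 15.3 RPKM with dox. The 10 macrophage markers summed to 6.73 and 7.37 RPKM without dox and 9.44 and 8.14 RPKM with dox. The neuronal tubulin Tubb3 was at 22.4 and 21.4 RPKM without dox and at 152 and 146 RPKM with dox, and the adhesion protein Ncam1 fell by 1.50 ± 0.079. Of 10 skeletal muscle markers, skeletal actin (Acta1) and desmin (Des) fell by 1.10 ± 0.19 and 1.02 ± 0.15, and the troponin Tnni2 rose by 1.27 ± 0.18. Of 10 fat cell markers, the transcription factor Cebpa and the lipase Lpl rose by 1.57 ± 0.10 and 1.86 ± 0.22, and the fatty acid carrier Fabp4 fell by 2.58 ± 0.20. The globin gene Hba-a1 was at 0.0133 and 0.0179 RPKM without dox and at 2.28 and 1.88 RPKM with dox. Of 10 trophoblast markers 0 were tested. Of 16 tested bone and cartilage genes 7 rose and 8 fell, at a median of -0.28. Bglap2 (0.252 and 0.721 RPKM without dox and 64.9 and 69.4 RPKM with dox) and Bglap (log2 change 4.42 ± 0.092) were 2 further large rises. They are near-identical osteocalcin genes whose reads cannot be assigned with certainty. The calcification inhibitor Mgp fell by 2.55 ± 0.44.

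The same dox contrast was set beside those of the other siRNAs by an interaction term, which tests whether the change with dox differs. Against siMyc it differed for 7129 genes (54.1% of those tested), with a higher value in siMyc for 24.8% and a lower one for 29.3%. Against siGcn5 it differed for 3409 (25.9%), higher for 11.4% and lower for 14.5%. The count for siGcn5 went down to 1677 without siControl replicate 2 of the libraries without dox. For lists that moved in 1 direction, the nearer background is the genes called that way in siControl. These genes were picked by their change in siControl, which the interaction subtracts. That pick alone tilts the counts toward lower for rises and toward higher for falls, so the counts serve only as a background. Of 6075 genes called up, the dox change was called lower for 3583 and higher for 564 with siMyc. With siGcn5 it was called lower for 1759 and higher for 133. Of 3676 genes called down, it was called higher for 2037 and lower for 41 with siMyc. With siGcn5 it was called higher for 1281 and lower for 17. Of 36 replication genes, the dox change was called lower than in siControl for 35 with siMyc and for 2 with siGcn5. Their medians were 1.21 in siControl, -0.09 in siMyc and 0.94 in siGcn5. Of 30 mitosis genes, 25 were called lower with siMyc and 0 with siGcn5. Of 24 collagen genes, the dox change was called higher than in siControl for 19 with siMyc and for 20 with siGcn5, at medians of -1.69, -0.69 and -0.71. Of 29 lysosomal genes 25 with siMyc and 19 with siGcn5 were called higher, at medians of -0.78, 0.16 and -0.31. Both interactions use the same siControl libraries, and a dox change depends on the level without dox as well as on that with dox. Whether the levels of these lists without dox differed between the arms was not tested. Among 26 epidermal differentiation genes 10 were called higher and 7 lower with siMyc, and 4 higher and 8 lower with siGcn5. The medians were 2.11 in siControl, 2.77 in siMyc and 2.17 in siGcn5.

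The induction of the factors was not the same in the 3 arms. With dox, Pou5f1 stood at 268 ± 28 RPKM in siControl, 110.0 ± 17 in siMyc and 169 ± 44 in siGcn5 (mean ± SD, n = 2), and Myc, the target of siMyc, at 165 ± 14, 21.6 ± 6.6 and 116 ± 18. On the log2 scale, the dox change of Pou5f1 was lower than in siControl, by 1.29 ± 0.24 with siMyc and by 1.44 ± 0.24 with siGcn5. A dox change also depends on the level without dox, and with dox Pou5f1 stood higher in siGcn5 than in siMyc. The dox change of Myc was lower than in siControl by 1.05 with siMyc. With siGcn5 the dox change of Myc was higher than in siControl by 0.66, which was not called, although its level with dox was lower. Klf4 was not called in either interaction (limma adjusted p = 0.816 and 0.596). The part of these differences in the counts of the gene lists was not tested.

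**Figure D5:**
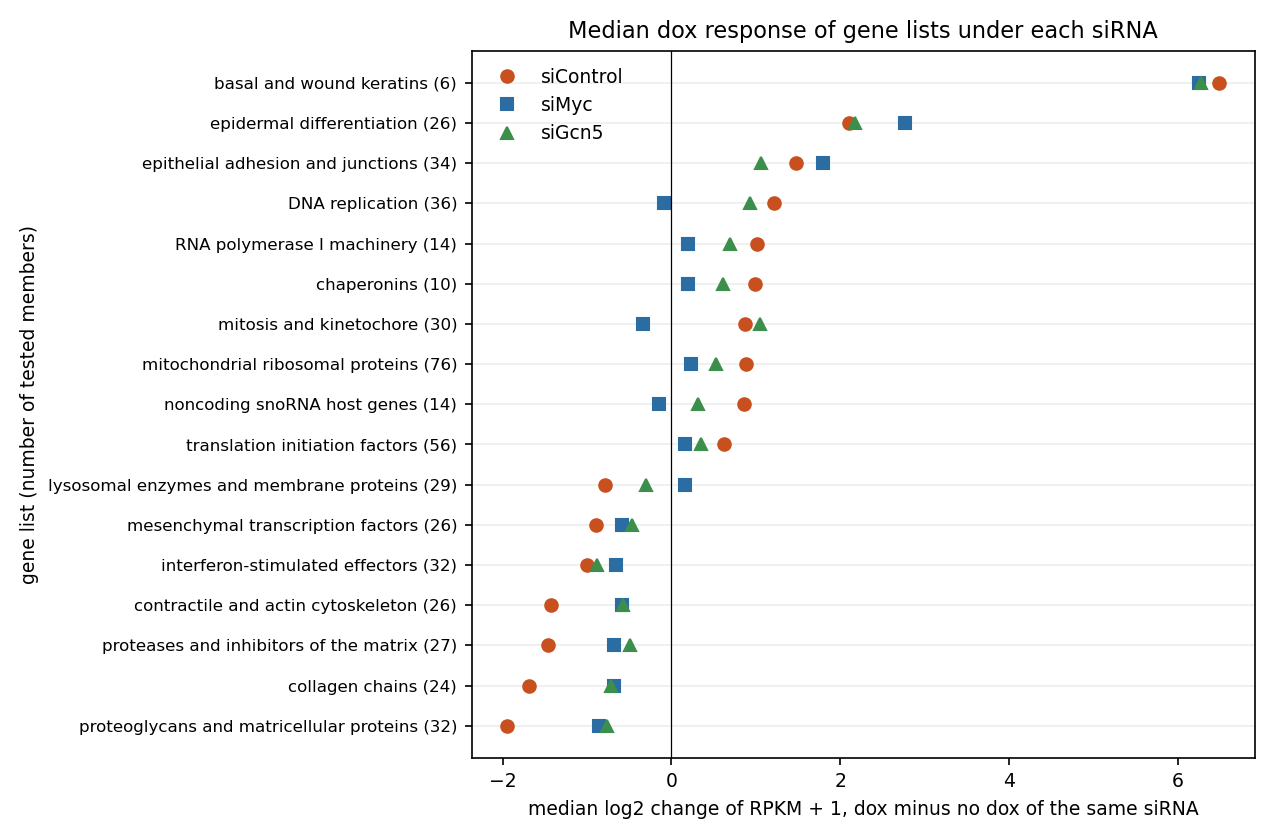
Median log2 change with dox over the tested members of 17 gene lists, each against the libraries of the same siRNA without dox, in siControl (orange circles), siMyc (blue squares) and siGcn5 (green triangles). Replication genes lie at 1.21 in siControl and -0.09 in siMyc, and basal and wound keratins lie at 6.49, 6.25 and 6.28 in siControl, siMyc and siGcn5.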

How the data were processed

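RNA was measured in 12 libraries of mouse fibroblasts by stranded, rRNA-depleted sequencing, per the labels' protocols. Per the submitters' processing notes, which give no roles, the tools were Bowtie 0.12.8, TopHat2 2.0.9, edgeR, HTSeq and affy, with mm9. No annotation, strand setting or filter is named in the sources used here. The values deposited by the authors are RPKM per gene symbol. Whole reads were recovered from the steps between low values and gave the depths. RPKM is relative within a library, so it does not show total RNA per cell.

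log2(RPKM + 1) of genes with at least 1 RPKM in 2 or more of the 12 libraries was fitted with limma 3.58.1 (R 4.3.3, trend) over all 6 groups, with Benjamini-Hochberg adjustment at 0.05. The test was also run on simulated data with far fewer changed genes and a fixed spread, so that run does not measure its error rate in these data. Samples were grouped by their titles. Alternatives were the pseudocount, filters, scalings, the 4 siControl libraries alone, a replicate block, leaving out each library and, chosen after seeing the data, voom on the recovered reads.

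The gene lists were chosen with earlier results of these data known. The genes named were the factors and stage markers, the 20 largest rises and falls, and up to 3 rises and 3 falls per list. Chosen after values were seen were the motifs and the genes Cldn4, Cnn2, Fgf10, Fn1, H19, Ifit1, Igf2, Irf7, Irgm1, Itga5, Krt1, Krt10, Krt18, Krt5, Lama3, Mbnl2, Mkl1, Polr3gl, Prrx2, Rbfox2, Sbsn, Srf, St14, Stat2, Tagln, Tgm1, Trp63 and Vcl. Promoter sequences are from RefSeq (GRCm38.p6), with chromosome 18 left out. Some genes of these lists are not reported here.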

Additional observations from a re-analysis of the deposited data

Results flagged for a closer look

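The change with dox differed between arms, by the interaction test of limma, for 7129 genes between siMyc and siControl and for 3409 between siGcn5 and siControl. The values that follow are the change in the other arm minus that in siControl on the log2(RPKM + 1) scale. Pou5f1 gave -1.29 for siMyc and -1.44 for siGcn5. Sox2 gave -0.84 for siMyc, a call that ended under most alternatives, and Myc gave -1.05 for siMyc. The keratin gene 4732456N10Rik gave 3.73 for siMyc and -0.85 for siGcn5. With dox it stood at 80.6 ± 4.4 RPKM in siControl, 1072 ± 42 in siMyc and 44.0 ± 5.4 in siGcn5 (mean ± SD, n = 2). Krt14 gave 1.16 for siMyc, with 954 ± 71 RPKM in siMyc with dox. With a pseudocount of 0.1 RPKM that difference was 0.01 (limma adjusted p = 0.982). E-cadherin (Cdh1) went the other way, with -1.59 for siMyc and 5.05 ± 0.1 RPKM with dox against 17.0 ± 1.8 in siControl. Col1a1 gave 1.61 for siMyc and 1.10 for siGcn5. These differences share the siControl libraries.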

How the results depend on the processing

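For the 191 genes named in the text that could be tested, 3749 of 3778 values under the alternatives kept their direction and their side of the threshold, 24 values of 5 genes lost the call, 3 gained one, 2 values of 1 uncalled gene moved and 0 reversed. The count of genes called for dox was between 8656 and 9888 when any 1 library was left out, with 5482 to 6133 rises and 3070 to 3755 falls. The interaction with siMyc gave 5779 to 7433 genes, and that with siGcn5 gave 1677 to 3960. The last count fell by over 1.5 times without siControl replicate 1 without dox (1917), siControl replicate 2 without dox (1677), siControl replicate 2 with dox (1769), siGcn5 replicate 1 without dox (1734) or siGcn5 replicate 1 with dox (2232); the cause was not tested. Where leaving out a library left 1 in a group, that library was taken to vary like the other groups. With voom on recovered reads, an alternative chosen after seeing the data, 2 interactions turned direction, that of 4732456N10Rik with siGcn5 (1.42) and that of Krt14 with siMyc (-1.09); the cause was not tested. The labels number replicates 1 and 2 in every group, but nothing says that a number marks a shared culture. Deviations of same-numbered siControl libraries correlated across genes at 0.258, and over all 15 pairs of groups at 0.093 to 0.489. With the replicate block 10373 genes were called for dox (6408 up and 3965 down), 8287 in the interaction with siMyc and 5061 in that with siGcn5, and Krt10 was called (log2 change 0.22, limma adjusted p = 0.029). Of 62 list medians, 8 changed sign under some alternative: Notch and Hedgehog, AP-1, splicing regulators, amino acid transporters, sterol genes, S100 genes, and the endothelial and macrophage markers. The depth of 97.3 M reads or more in these libraries puts 1 read well below 1 RPKM, and the 2 libraries per group limit the error estimates.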
